A study of Equus caballus with 4 samples.

Results

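Sensors of double-stranded RNA and the oligoadenylate synthetase (OAS) enzymes were described in differentiating equine satellite cells (ESC), the muscle precursor cells of the horse. The 10 genes were IFIH1, DDX58, DHX58, DDX60, EIF2AK2, OAS1, OAS2, OAS3, OASL and ADAR. They were selected on the values of the contrast described here, so their values are a description without a test, and nothing is supported by them. A probe was taken when the gene name in the files was 1 of the 10, which gave 20 probes of 7 genes among the 24803 genes or transcripts of the array. The names of DHX58, DDX60 and ADAR stood only in the description of their probes. These 3 genes and a further probe of OAS3, 13 probes in all, are given beside the 7.

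The cells came from the semitendinosus muscle of colts and were replated on day 10 of growth. Once the new wells were nearly covered, differentiation was started in medium with 2% horse serum. Treated cells received HMB (β-hydroxy-β-methylbutyrate, which the body makes from leucine) after day 2 of differentiation and were incubated for 24 h, to day 3. Control cells stayed in differentiation medium without HMB. Total RNA of both, with an RNA integrity number of at least 9.2, was compared on 4 two-colour arrays (n 4), each with treated cells labelled red (Cy5) and control cells green (Cy3). The dyes were not exchanged, so dye and group cannot be told apart. The labels call the arrays biological replicates, but which colts were on which array is not stated in the sources used here. If the arrays share colts, SD and p-values cover less than the spread between animals. The labels give the dose as 50 µg, whereas the methods give it in micromolar, and the description field calls the treated cells GO-treated, whereas titles and source names say HMB.

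Double-stranded RNA in the cytosol is a sign of viral replication, and it can also come from the transcripts of a cell. The RIG-I-like receptors bind it and signal through MAVS to kinases and transcription factors that switch on type I interferon genes. Protein kinase R (PKR) stops translation when it binds double-stranded RNA, OAS enzymes make oligoadenylates that act as an antiviral signal within the cell, and ADAR edits adenosines in such RNA so that it is sensed less. Interferon raises the mRNA of most of these genes in many cell types, so that the sensors are both upstream of interferon and among its targets.

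Each value is a log2 ratio of HMB-treated to control cells, so that −1 stands for a signal 2-fold lower with HMB. Errors are SD over the 4 arrays. Where a gene has several probes, the brightest tested one on average stands for it, and the others are given as well. Testing required 1 channel to be well above background throughout the 4 arrays. All 33 probes of the 10 genes passed this filter. IFIH1 probe 1 passed through the control channel, since its HMB channel was above background on 2 of the 4 arrays, and for every other probe both channels were above background throughout. In bulk RNA, fewer cells of a type and less RNA per cell cannot be told apart.

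Probe sequences are shown for the receptor DDX58, for DDX60 and for PKR, because their ratios rest on sequences that do not overlap, and for ADAR, because its 5 probes are staggered copies of 1 site. Capitals mark the stretch shared by both ADAR probes shown. Positions are those in the files, on the EquCab1 genome.
DDX58 probe 1: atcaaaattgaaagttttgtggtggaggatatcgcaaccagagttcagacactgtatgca
DDX58 probe 2: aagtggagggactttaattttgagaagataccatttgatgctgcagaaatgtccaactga
DDX60 probe 1: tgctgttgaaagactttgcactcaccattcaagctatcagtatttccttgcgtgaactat
DDX60 probe 2: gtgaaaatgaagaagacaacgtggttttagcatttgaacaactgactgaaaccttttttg
EIF2AK2 probe 1: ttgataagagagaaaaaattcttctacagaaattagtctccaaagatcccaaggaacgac
EIF2AK2 probe 2: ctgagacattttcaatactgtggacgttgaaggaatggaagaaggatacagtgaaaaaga
ADAR probe 1: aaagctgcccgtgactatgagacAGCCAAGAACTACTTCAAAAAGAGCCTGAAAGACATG
ADAR probe 5: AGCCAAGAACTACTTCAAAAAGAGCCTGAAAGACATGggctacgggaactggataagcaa
Both DDX58 probes lie on the minus strand and adjoin, at chr23:39516222-39516281 and chr23:39516162-39516221. The DDX60 probes lie on the plus strand, at chr2:52578509-52581586, which spans a junction, and chr2:52581587-52581646. Those of EIF2AK2 are also on the plus strand, at chr15:57176244-57176381, across a junction, and chr15:57176382-57176441. The ADAR probes lie on the minus strand of unplaced sequence, at chrUn:83272877-83272936 and chrUn:83272854-83272913, and share 37 bases.

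The ratio of every gene's representative probe lay below 0 on every array. The mean log2 ratio of the 10 genes ranged from −3.04 for DDX60 to −0.18 for OASL. Its median was −1.10 over the 7 genes found by name and −1.20 over all 10, whereas the median of the 15498 genes or transcripts with a tested probe was 0.02. All 7 genes, and all 10, had a ratio below 0 on all 4 arrays, a share that was 21.4% over the whole array. Across the array 22.8% of the 27384 tested probes passed the threshold of 0.05 for the adjusted p of limma, a count of 6257 that was 2573 without array 2, 2705 without array 3 and 2569 with the channels unpaired. Of the genes, 11.6% passed as lower and 10.9% as higher. Since the members were selected on this contrast, no call is given for them.

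**Figure D1:**
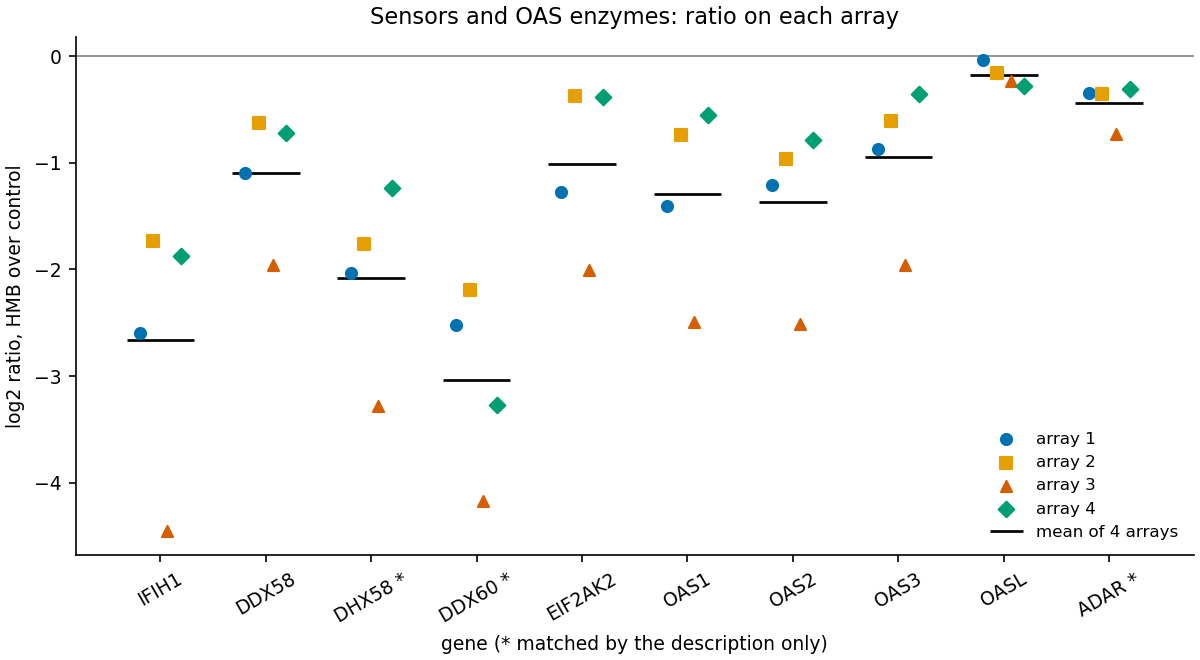
Log2 ratio of HMB-treated to control cells (y axis) for the representative probe of each gene (x axis), with 1 symbol per array and a bar at the mean of 4 arrays; an asterisk marks genes matched by the description only. Every point lies below 0, and array 3 gave the lowest point for 9 of the 10 genes.

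IFIH1 encodes MDA5, the receptor of long double-stranded RNA. On arrays 1 to 4 its log2 ratios were −2.60, −1.73, −4.46 and −1.87. It was lowest on array 3, and arrays 2 and 4 lay close together and nearest to 0. The mean was −2.66 ± 1.25, a signal 6.34-fold lower with HMB, and this size depended on the processing and on array 3. The mean was −1.71 after normexp background correction and loess, and −2.07 without array 3. IFIH1 probe 1 had ratios below 0 on all arrays, but they rest in part on HMB values not above background, so no size is given for it.

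DDX58 encodes RIG-I, which recognises short double-stranded RNA with a 5′ triphosphate. Its ratios were −1.09, −0.63, −1.96 and −0.72, with a mean of −1.10 ± 0.61, or 2.14-fold lower. Array 3 was the lowest for DDX58 too. The adjoining DDX58 probe gave −1.07, −0.73, −2.04 and −0.64, so that the pair differed by less than their spread on every array. DHX58 encodes LGP2, a receptor without signalling domains of its own that modulates the other two. Its representative probe gave −2.04, −1.76, −3.28 and −1.24, with a mean of −2.08 ± 0.87 (4.22-fold lower). The lowest value was on array 3 and the one nearest to 0 on array 4. All 5 DHX58 probes had means from −2.28 to −2.08, but they share runs of 56 to 59 bases and are not separate measurements.

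DDX60 encodes a helicase of the same superfamily that has been described as an antiviral cofactor of the RIG-I-like receptors. It had ratios of −2.52, −2.19, −4.17 and −3.27. Here array 4 was the next lowest after array 3, unlike for the receptors, where array 1 came next. The mean was −3.04 ± 0.88, or 8.23-fold lower. The DDX60 probe on the adjoining stretch of the genome gave −2.77, −2.35, −4.99 and −3.46, in the same order of arrays, with a mean of −3.39 ± 1.16.

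EIF2AK2 encodes PKR, the kinase that phosphorylates the translation factor eIF2 alpha on binding double-stranded RNA. Ratios of its representative probe were −1.28, −0.38, −2.00 and −0.39, with a mean of −1.01 ± 0.79 (2.02-fold lower). Arrays 1 and 3 lay well below arrays 2 and 4, which were alike. EIF2AK2 probe 1 gave a mean of −1.15 ± 0.70. EIF2AK2 probe 3 gave −1.32, −0.22, −1.84 and 0.09, a mean of −0.82 ± 0.91, and was the only probe found by gene name whose ratio was above 0 on an array, array 4.

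The OAS genes encode the enzymes that make 2′-5′ oligoadenylates on binding double-stranded RNA. OAS1 had ratios of −1.40, −0.74, −2.49 and −0.55, with a mean of −1.30 ± 0.87 (2.46-fold lower). OAS2 had ratios of −1.21, −0.97, −2.51 and −0.78, with a mean of −1.37 ± 0.78 (2.58-fold lower). OAS3, the largest enzyme of the family, had ratios of −0.87, −0.61, −1.96 and −0.35 and a mean of −0.95 ± 0.71 (1.93-fold lower), which was −0.61 without array 3. All 3 genes had the same order of arrays, with array 3 lowest, then array 1, array 2 and array 4. Their probes lie within 58066 bases of chromosome 8, on the same strand.

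Probes of OAS1 and of OAS2 were close, whereas those of OAS3 were not. Means of the 4 OAS1 probes ranged from −1.31 to −0.98 and those of the 6 OAS2 probes from −1.44 to −1.37, and neighbouring probes share up to 40 and 59 bases. The OAS3 probe matched by description, which lies elsewhere in the gene, across a junction, gave −0.31, −0.04, −0.05 and 0.03. Its mean was −0.09 ± 0.15, and array 3 did not stand apart, whereas the other OAS3 probe had its lowest value there. The means of both OAS3 probes differ by more than the SD of either. The probe matched by description was also dimmer, with a mean log2 level of 5.39 in control and 5.30 in HMB-treated cells. The other OAS3 probe had 7.46 and 6.51. Whether the probes read the same transcripts, and what part the dim signal has in the flat ratio, was not tested.

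OASL, which encodes an OAS-like protein that lacks the synthetase activity in humans and enhances RIG-I signalling, had the ratios nearest to 0. They were −0.04, −0.16, −0.23 and −0.28, with a mean of −0.18 ± 0.10 (1.13-fold lower), which was −0.06 after median centring without lowess. Array 3 did not stand apart for this probe. The other OASL probe gave −0.35, −0.15, −0.66 and −0.42, a mean of −0.39 ± 0.21, with array 3 lowest. The means of both OASL probes differ by slightly more than the SD of either. ADAR, the editing enzyme that limits sensing of a cell's own double-stranded RNA, had ratios of −0.34, −0.36, −0.73 and −0.31, with a mean of −0.44 ± 0.20 (1.35-fold lower). On this probe arrays 1, 2 and 4 were alike and array 3 lay below them. The 5 staggered ADAR probes had means from −0.61 to −0.39, which is within their spread.

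In order of mean log2 ratio the genes were DDX60, IFIH1, DHX58, OAS2, OAS1, DDX58, EIF2AK2, OAS3, ADAR and OASL. Neighbours in this order differed by less than the SD of at least 1 of the pair, except ADAR and OASL. The order is of differences between treated and control cells and says nothing of the amount of each mRNA. In all, 31 of the 33 probes, and 19 of the 20 found by gene name, had a ratio below 0 on every array.

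**Figure D2:**
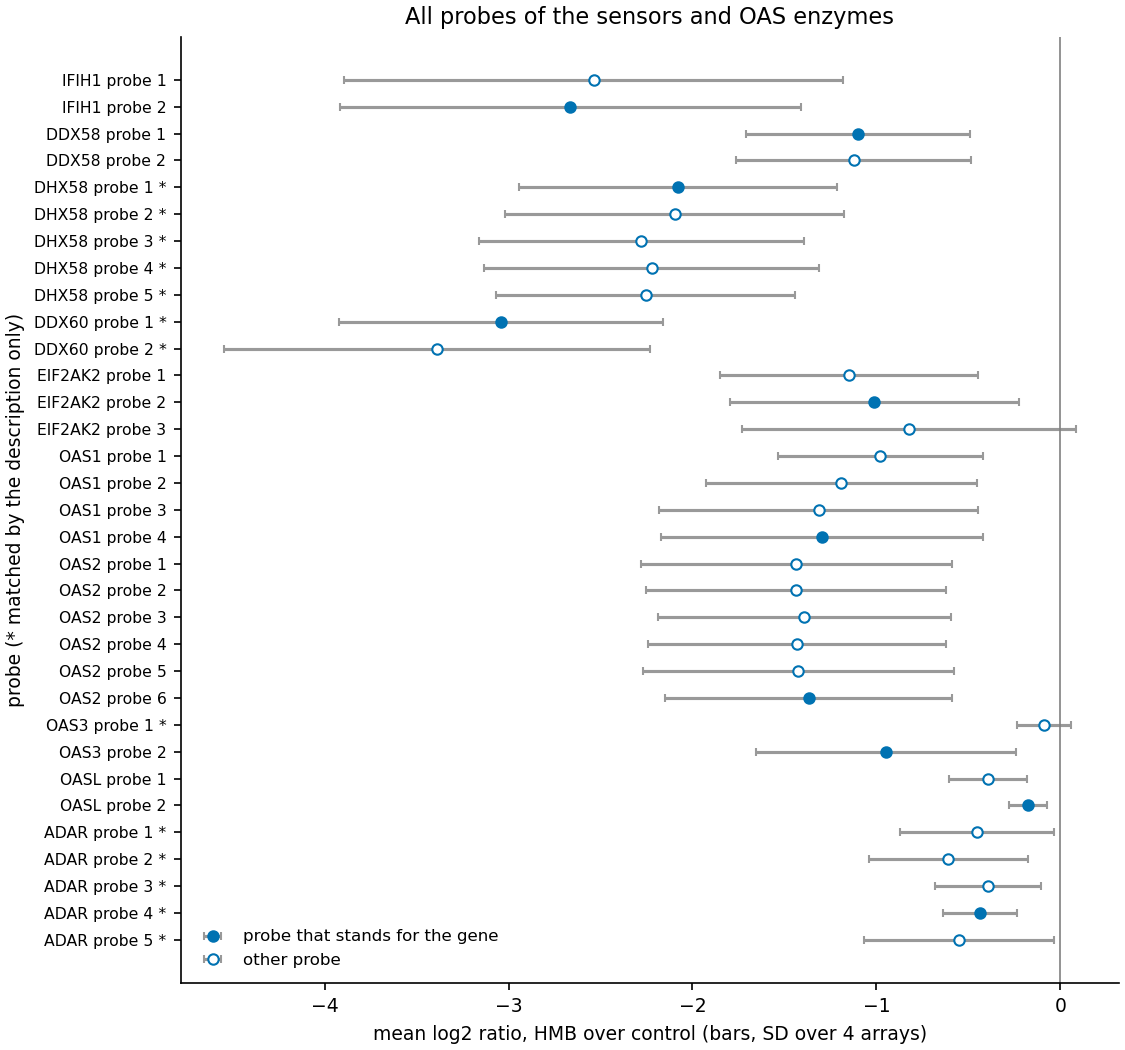
Mean log2 ratio of HMB-treated to control cells (x axis) of all 33 probes (y axis), with bars for the SD over 4 arrays; filled points are the probes that stand for a gene and an asterisk marks probes matched by the description only. Probes of 1 gene lie close together apart from those of OAS3, at −0.09 and −0.95, and, by less, those of OASL, at −0.39 and −0.18. No size is read from the point of IFIH1 probe 1, which rests in part on HMB values not above background.

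Probes of different members share little sequence. The longest run of bases common to probes of different member genes was 8. The median G and C content was 41.7% for the 33 probes, with a range of 35% to 45%, and 41.7% for all tested probes. A junction is spanned by 3 of them, beside 15.1% of the tested probes. Members on chromosome 8 number 4, namely the 3 OAS enzymes and OASL.

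The ratio of an array combines 2 levels, so the control and HMB channels were also looked at apart. Levels are log2 of the processed intensity, scaled so that the mean intensities of both channels have the same distribution on all arrays. Apart from the OAS3 probes above, they are compared between arrays for 1 probe only. For IFIH1 the control level was 8.34, 7.05, 9.37 and 6.41 on arrays 1 to 4 and the HMB level 5.74, 5.31, 4.91 and 4.54. Control cells were highest on array 3 and next on array 1, whereas HMB-treated cells were not high on array 3, and the groups did not overlap. The share of all genes whose groups do not overlap was not counted. Nothing is therefore read from overlap or its absence, for IFIH1 or for the members below. The SD was 1.32 in control and 0.52 in HMB-treated cells. These HMB levels are low, and on IFIH1 probe 1 the HMB channel was above background on 2 of the 4 arrays. What part a floor has in the narrower HMB spread was not tested.

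For DDX58 the control level was 9.84, 9.14, 10.47 and 9.17 and the HMB level 8.75, 8.51, 8.51 and 8.45. The control values spread with an SD of 0.63 and the HMB values with 0.13, so nearly all of the difference between arrays lay in the control channel. EIF2AK2 showed the same, with control levels of 9.46, 8.79, 10.10 and 8.55 and HMB levels of 8.19, 8.41, 8.10 and 8.17. Its SD was 0.70 in control and 0.14 in HMB-treated cells, and again the groups did not overlap, although they did for EIF2AK2 probe 3. For the probe that stands for OAS1 the control level was 14.06, 13.04, 14.82 and 12.87 and the HMB level 12.65, 12.30, 12.33 and 12.32, with SD of 0.91 and 0.17. The groups did not overlap on this probe, but they did on OAS1 probes 1 and 2. OAS1 probe 1 had control levels of 13.04, 11.94, 13.75 and 11.66 and HMB levels of 11.94, 11.36, 12.03 and 11.14, so that both channels were high on arrays 1 and 3. The SD of the HMB level was 0.43, 0.30 and 0.19 for OAS1 probes 1 to 3.

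In DHX58, OAS2 and OAS3 the HMB level also varied with the control level of the same array. DHX58 had control levels of 9.99, 8.07, 10.84 and 7.55 and HMB levels of 7.95, 6.31, 7.56 and 6.32. Both channels were high on arrays 1 and 3, and the groups overlapped, since control cells on array 4 lay below HMB-treated cells on array 1. Their SD was 1.56 in control and 0.85 in HMB-treated cells. For OAS2 the control level was 12.77, 11.61, 13.83 and 11.54 and the HMB level 11.56, 10.64, 11.32 and 10.76, again high on arrays 1 and 3 in both channels. The OAS2 groups overlapped as well. OAS3 followed this pattern, with an SD of 1.12 in control and 0.49 in HMB-treated cells.

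DDX60 had control levels of 10.92, 10.24, 12.24 and 10.55 and HMB levels of 8.39, 8.05, 8.07 and 7.28. The control level was highest on array 3 and the HMB level lowest on array 4, with no overlap. The probe that stands for OASL had control levels between 12.60 and 12.76 and HMB levels between 12.42 and 12.66, with SD of 0.07 and 0.11. On this probe the HMB level varied more than the control level, whereas OASL probe 1 had an SD of 0.49 in control and 0.45 in HMB-treated cells. The groups overlapped on both. ADAR had an SD of 0.36 in control and 0.27 in HMB-treated cells, and its groups overlapped too.

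**Figure D3:**
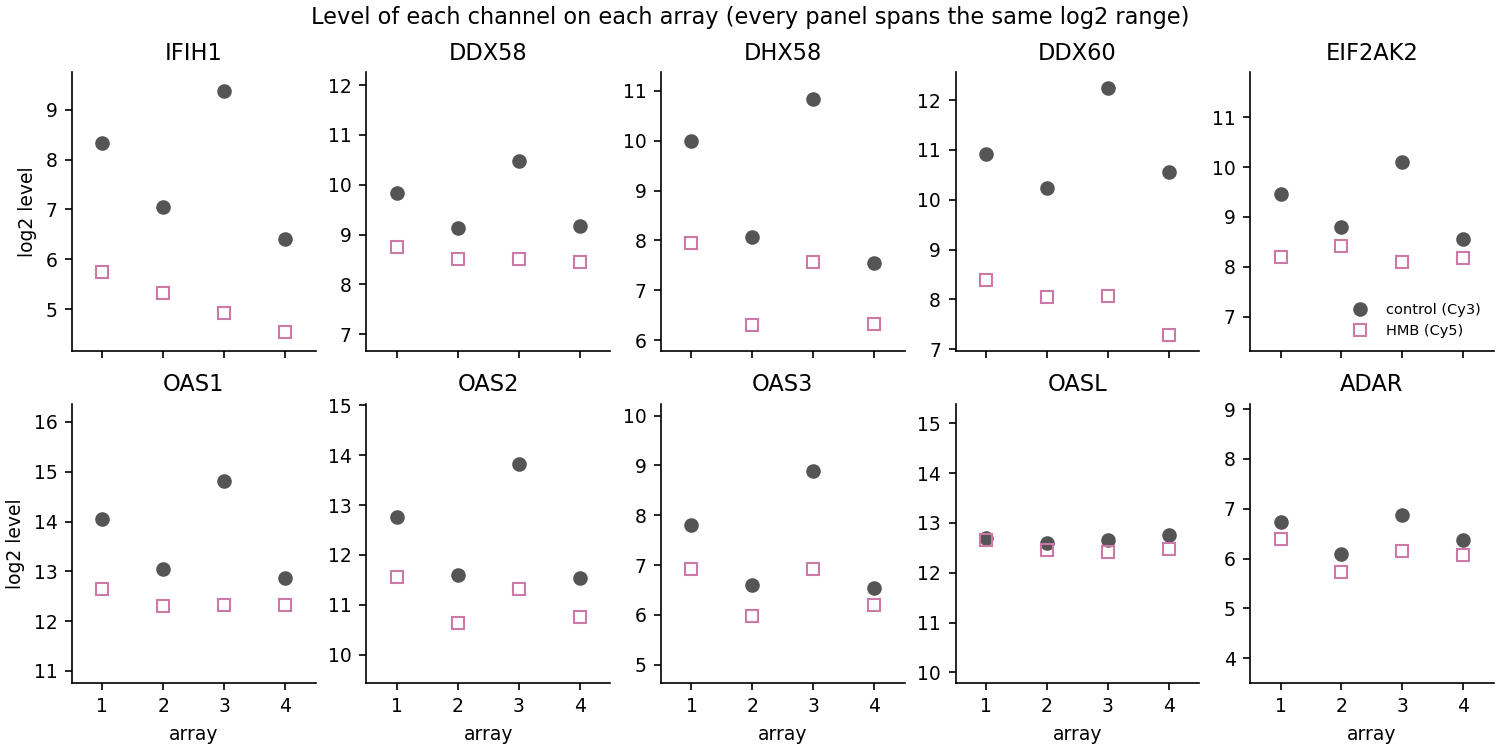
Log2 level of control cells (filled circles, Cy3) and HMB-treated cells (open squares, Cy5) on arrays 1 to 4 (x axis) for the representative probe of each gene, with y axes that differ in position but span the same range. Control levels are highest on array 3 in 9 of the 10 genes, and HMB levels are highest on array 3 in 0. The shares of all genes are not given for these counts.

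On the representative probes the control level varied more than the HMB level for 6 of the 7 genes found by name and 9 of the 10, beside 40.9% of all genes. The median SD of the 7 genes was 0.91 in control and 0.17 in HMB-treated cells, and that of the 10 genes was 0.90 and 0.36. Over all genes it was 0.14 and 0.17. Likewise, the lowest ratio was on array 3 for 6 of the 7 and 9 of the 10, beside 18.1% of all genes. The control level was highest on array 3 for the same numbers, 6 of the 7 and 9 of the 10. The share of all genes is not given for this count, so nothing is read from it. With 1 control sample per array, whether the wide control values belong to the cells or to the arrays was not tested. Without array 3 the median log2 ratio of the 7 genes was −0.81, and without array 2 it was −1.26.

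The 8 genes most like the members, of 10145 genes with a symbol, were taken by the root mean square difference (RMS) of their ratio from the members' median on each array, over 4 arrays. That median was −1.21, −0.63, −2.00 and −0.55. CMPK2, a nucleotide kinase of mitochondria, was nearest, with −1.14, −0.58, −2.03 and −0.39 and an RMS of 0.0921. On every array CMPK2 lay nearer to that median than its own SD of 0.73. UBE2L6, the conjugating enzyme for the ubiquitin-like protein ISG15, and HERC5, a ligase for it, had an RMS of 0.182 and 0.247. The other 5 genes have no name beyond a locus number, with an RMS between 0.154 and 0.256. By the order of genes in RefSeq (a later assembly), 4 of them stand within 6 entries of IFITM5, and their probes share runs of 24 to 55 bases, so they are not separate measurements. The last, LOC100052081, stands 6 entries from GBP5.

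Genes that work with the members, and are not members themselves, were counted in 6 lists, and for these the adjusted p of limma is given. All 62 genes are on the array and 54 were tested, with 32 ratios below 0 and 22 above, and a median of −0.03. Limma called 3 as lower and 4 as higher, beside 11.6% and 10.9% of all genes. One of the lower, TLR3, was tested only through the control channel, so that 2 fell without it. The count of 7 was 4 without array 2, 3 without array 3 and 2 with the channels unpaired. With both channels above background, which leaves TLR3 out, the count was 7, with 3 lower in RIG-I-like receptor signalling.

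Signalling from the RIG-I-like receptors was tested in 17 genes, of which 2 fell and 2 rose, with a median of −0.02. IRF7, the transcription factor that amplifies type I interferon and is itself induced by it, had ratios of −1.82, −1.77, −3.09 and −1.57. Its signal was lower on all 4 arrays, and array 3 was the lowest, as in 9 of the 10 members. IRF7 fell 4.18-fold (mean −2.06 ± 0.69, limma adjusted p 0.00424), a call that was lost in the methods' t-test, which takes the variance of each probe alone, with an adjusted p of 0.0844. Over all alternatives the adjusted p of IRF7 was between 0.00212 and 0.0844.

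ZNFX1, a helicase that binds double-stranded RNA at mitochondria and signals through MAVS, had ratios of −0.77, −0.41, −1.47 and −0.30. Its mean was −0.74 ± 0.53, below 0 on 4 of 4 arrays, with an adjusted p of 0.0376 in limma. The call was lost without array 1, 2 or 3 (adjusted p 0.102, 0.0614 and 0.0551), and over all alternatives the adjusted p was between 0.0198 and 0.191. TRAF3, an adaptor between MAVS and the kinases, rose by 0.48 ± 0.18 on the log2 scale, above 0 on 4 of 4 arrays, with a limma adjusted p of 0.0123. It kept its side of the threshold whichever array was left out, whereas p was 0.188 with the channels unpaired, the highest of its alternatives, and 0.00966 at the lowest. IKBKE, a kinase that activates IRF3 and IRF7, had a mean of 0.37 ± 0.23 above 0 on 4 of 4 arrays, with a limma adjusted p of 0.0407. The size depended on the processing, with 0.10 under normexp and 0.17 after median centring without lowess, and neither passed. This call was lost without array 1, 3 or 4 (adjusted p 0.108, 0.151 and 0.0882) and its adjusted p ranged from 0.0338 to 0.268 over the alternatives. The adaptor MAVS itself had a mean ratio of −0.05 ± 0.21 and did not pass, and it is named here after its value was seen.

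TLR3, which senses double-stranded RNA in endosomes, had ratios below 0 on all arrays. Since the HMB channel was above background on 3 of the 4 arrays, TLR3 was tested only through the control channel, where it was higher, and was not tested when both channels had to be above background. No size is given for TLR3, and nothing is read from its call. The endosomal list held 2 further tested genes, which did not pass, and its median was −0.06.

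Downstream of the OAS enzymes 0 of 3 genes passed in limma, and 0 did before adjustment or by the methods' t-test. The median of these 3 genes was −0.03. Around PKR, 0 of 11 genes passed in limma and 0 by the t-test, while 1 had an unadjusted p under 0.05. This was TARBP2, a double-stranded RNA binding protein that inhibits PKR, with a mean of 0.18 ± 0.12 (0.11 after median centring without lowess) and a limma adjusted p of 0.116. The median of the PKR list, which holds the substrate eIF2 alpha and the other eIF2 alpha kinases, was −0.02. After median centring without lowess this median was 0.006, and 1 gene other than TARBP2 was called higher. A p that misses the threshold does not show that these genes did not differ.

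Adenosine deaminases other than ADAR had 2 tested genes of 6, and 0 passed in limma, before adjustment or by the t-test. ADAT2, a subunit of the tRNA deaminase, had the smallest limma adjusted p of 0.761, with a mean of 0.03 ± 0.10. Among 18 other proteins that bind or unwind double-stranded RNA, 0 fell and 2 rose in limma, a balance that turned to 2 lower and 1 higher after median centring without lowess and to 1 each under normexp. As reported, 2 lower and 3 higher had an unadjusted p under 0.05. DHX33, a helicase described as a sensor of double-stranded RNA, rose by 0.34 ± 0.06 on the log2 scale, higher on 4 of 4 arrays (limma adjusted p 0.0130). The size of DHX33 was 0.14 under normexp and 0.10 after median centring without lowess, and neither passed. DDX21, a nucleolar helicase, rose by 0.38 ± 0.16, higher on 4 of 4 arrays (limma adjusted p 0.0210). Both calls were lost without array 2 or 3, with adjusted p of 0.0606 and 0.0595 for DHX33 and of 0.0791 and 0.0851 for DDX21. Over the alternatives p ranged from 0.0122 to 0.316 for DHX33 and from 0.0188 to 0.108 for DDX21.

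**Figure D4:**
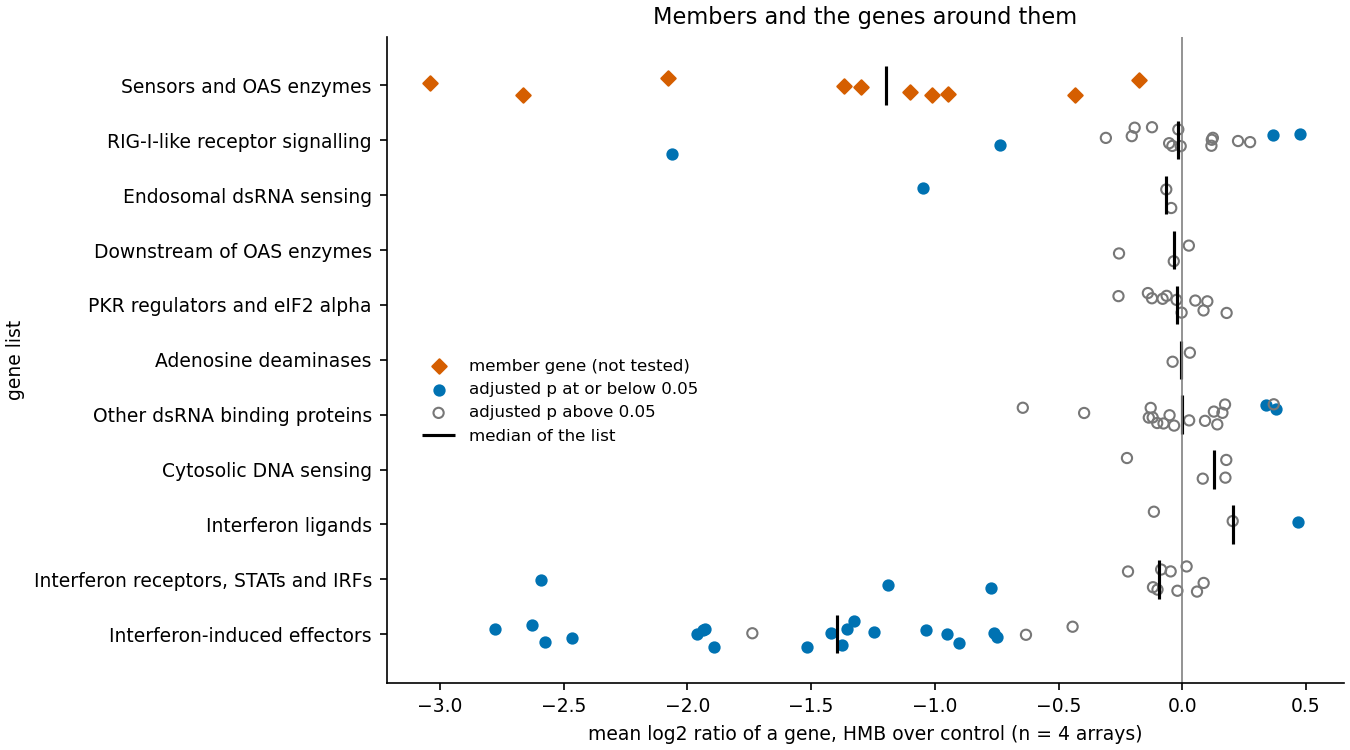
Mean log2 ratio over 4 arrays (x axis) of the 10 members (diamonds, not tested) and of the tested genes of each list (circles, filled where the adjusted p was at or below 0.05), with a bar at the median of a list. The medians are −1.20 for the members and −1.40 for interferon-induced effectors, and those of the other lists lie near 0. No size is read from the point of TLR3, which was tested only through the control channel.

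For comparison, lists around interferon were counted in the same way. Among interferon-induced effectors 19 of 22 tested genes fell, 0 rose, and the median was −1.40. MX2, IFIT3, XAF1 and DTX3L, 4 of the 19, were tested only through the control channel, where they were higher. With both channels above background, 15 of 18 fell and the median was −1.39. The count of 19 was 7 with the channels unpaired and 5 without the filter on dim probes. For the lists around interferon and the markers, such alternatives were chosen after seeing the data. Of all 22 genes, 0 were higher at an unadjusted p under 0.05, and 0 were called in either direction by the methods' t-test. The limma count of 19 lower was 12 without array 1 and from 15 to 20 without another array. By array the effectors had medians of −1.45, −0.89, −2.42 and −0.85. In the 18 with both channels above background, the lowest ratio was on array 3 in 17 and the control level varied more than the HMB level in 17. The median SD of these 18 was 0.91 in control and 0.35 in HMB-treated cells.

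Of the interferon receptors, STATs and IRFs, 3 of 12 tested genes fell and 0 rose, with a median of −0.09. Among them were IRF9 (mean −1.19 ± 0.52, limma adjusted p 0.00918) and USP18 (−2.59 ± 1.00, 0.00578). IRF9 belongs to the complex that carries the interferon signal to the nucleus, and USP18 limits signalling at the receptor. Both calls were lost without the filter on dim probes (adjusted p 0.0720 for IRF9 and 0.0603 for USP18), and that of IRF9 with the channels unpaired (0.0841). Before adjustment 4 were lower and 0 higher, and 0 passed by the t-test. Interferon ligands were mostly not measured, since 5 of 8 on the array were not tested. Of the 3 that were, 1 was called, IFND2, which was tested only through the HMB channel, where it was higher. The control channel was above background on 3 of the 4 arrays, so neither a size nor a direction is read from this call. Of the 4 tested genes of cytosolic DNA sensing 0 passed in limma or by the t-test. At an unadjusted p under 0.05, 2 of them were higher. The median of the 4 was 0.13, or −0.04 after median centring without lowess.

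**Figure D5:**
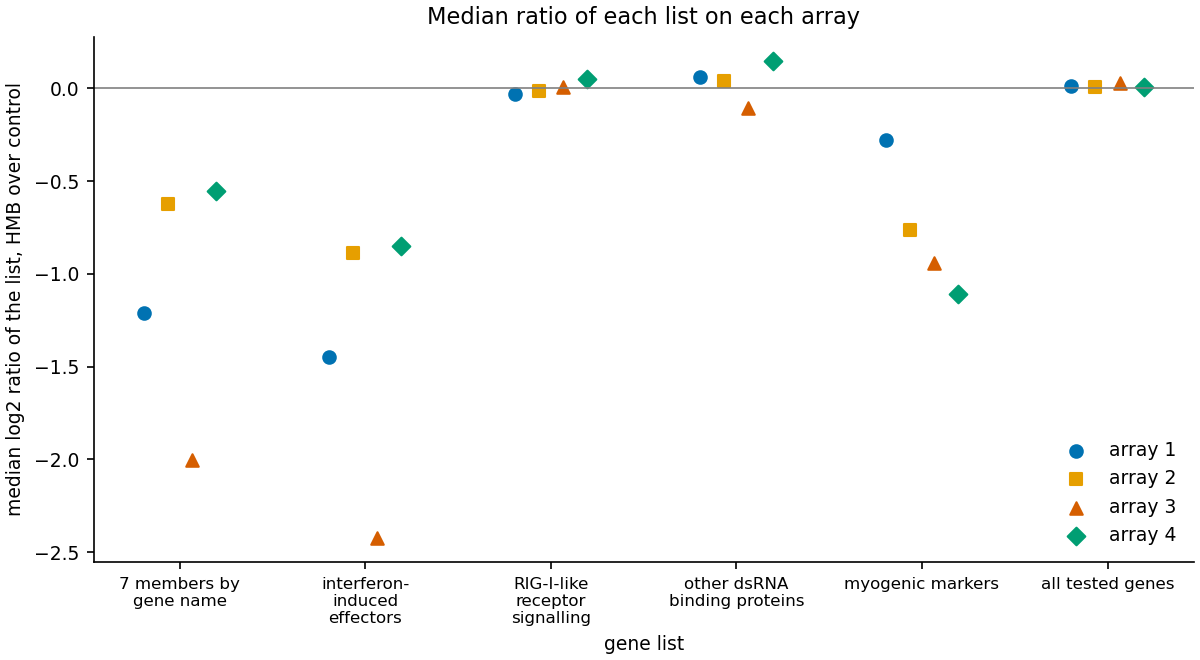
Median log2 ratio (y axis) of each list of genes (x axis), with 1 symbol per array. The members found by name and the interferon-induced effectors are lowest on array 3, at −2.00 and −2.42, whereas myogenic markers are lowest on array 4, at −1.11.

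Markers of the labelled cell type moved with HMB as well. Of 11 myogenic markers 10 were tested, of which 9 fell and 0 rose in limma, beside 11.6% and 10.9% of all genes. Their median was −0.79, and only PAX7 was not above background on any array. Before adjustment 10 were lower and 0 higher, and 0 passed by the t-test. The count of 9 was 5 without array 2, 3 or 4, 6 with the channels unpaired and 2 without the filter on dim probes. After median centring without lowess 8 were lower and 1 higher, since ACTC1 turned from −0.38 ± 0.26 to 0.64 (limma adjusted p 0.00154), and under normexp it was at 0.01 and did not pass. Their summed intensity was 260966, 253848, 306706 and 320596 in control cells and 225170, 162882, 170881 and 174334 in HMB-treated cells, with ACTC1 the brightest. It was lower with HMB on all arrays, in intensities dye-normalised with lowess. Since ACTC1 makes up much of the sum and MYH3, the next brightest, moved from −1.11 to −0.42 without lowess, the direction of the sum may depend on that step, and the sum without it was not computed. By array, myogenic medians were −0.28, −0.76, −0.94 and −1.11, an order unlike that of the sensors, and 2 of the 10 markers had a wider control than HMB level. What part the myogenic values have in the sensor ratios was not tested.

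Leukocytes also carry these sensors, and 6 of the 16 leukocyte markers on the array were tested. PTPRC, the brightest, rose by 0.28 ± 0.13 (limma adjusted p 0.0374), and 0 fell, with 1 lower at an unadjusted p under 0.05. The PTPRC call was lost without any 1 of the arrays (adjusted p 0.0683, 0.115, 0.111 and 0.0574 without arrays 1 to 4), and its size was 0.46 after median centring without lowess. CD14, with a mean of 0.02 ± 0.15, and CD68, with −0.29 ± 0.30, did not pass. The median of the 6 was 0.04, and it was −0.01 under normexp and −0.02 after median centring. ITGAM, CD3E, CD4, CD8A, CD79A and TYROBP were not above background on any array. The summed intensity was 17390, 15356, 17796 and 15998 in control and 22567, 17039, 19854 and 16922 in HMB-treated cells, so it was higher with HMB on all arrays. Most of this sum is PTPRC. Of endothelial markers 0 of 6 were tested, and PECAM1, VWF, KDR, TEK and TIE1 were not above background on any array. Their summed intensity was between 28.1 and 50.2 over all samples. Adipocyte markers had 0 of 4 tested, with a summed intensity between 17.5 and 81.6.

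Fibroblast markers were tested for 7 genes, with a median of −0.10 that turned to 0.10 under normexp and 0.70 after median centring without lowess. PDGFRA alone rose (1.53 ± 0.47, limma adjusted p 0.00358), and 0 fell in limma or before adjustment. The size of PDGFRA was 0.89 under normexp, and 2 and 4 markers rose in these alternatives. With array 1 left out, COL1A1 was called lower (limma adjusted p 0.0320, beside 0.137 with all arrays). COL1A2 was the brightest, and the summed intensity was 373820, 352541, 382048 and 492765 in control and 449919, 311242, 332486 and 330950 in HMB-treated cells. It was thus higher with HMB on array 1 and lower on the other arrays, while the sensors were lower on every array. COL1A2 itself turned from −0.20 to 0.81 after median centring without lowess, so the same holds for this sum. In the methods, a preplating step at isolation served to keep possible fibroblasts low. The part of these cells in the sensor ratios was not tested.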

How the data were processed

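Each of 4 arrays on 1 slide carried HMB-treated (Cy5) and control (Cy3) RNA. The authors extracted spot intensities with Feature Extraction 10.10.1.1, as named in the files, and the deposited processed intensity is background-subtracted and dye-normalised. The deposited log10 ratio of Cy5 over Cy3 follows linear and lowess normalisation by the authors. Other deposited columns hold marks of 0 or 1, for spots that are saturated, outlying or above background.

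The factor 3.32 took ratios to the log2 scale. Per array 1417 control spots were left out, as were spots marked outlying, and replicate spots were averaged. Of 43603 probes, 27384 were tested, namely those with at least 3 values and with 1 channel above background throughout. Median signal over background was 3.16 to 3.82 in Cy3 and 4.68 to 5.85 in Cy5, and the number of arrays limits precision.

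The mean ratio was tested against 0, two-sided, with limma 3.58.1 in R 4.3.3, and p-values were adjusted by Benjamini-Hochberg over these 27384 probes. The package data.table (1.17.8), Python 3.11.15, numpy 2.4.6, pandas 2.3.3 and matplotlib 3.10.9 were also used. The procedure was tested on simulated data. Both channels of an array deviated together from their group means (correlation across 15490 genes 0.617, 0.666, 0.499 and 0.661), so they were treated as pairs, as in the ratio. Named genes are the members, list genes past the threshold, the smallest adjusted p of each partner list, and the 8 genes most like the members, and the values of 2 genes are not reported here. Members and lists were chosen with earlier results of these data known. Alternatives were normexp, median centring without lowess, the methods' t-test (a Student test, from the authors' data processing notes), an intensity trend, unpaired channels, other filters, the summary values, the mean over the probes of a gene, and leaving out each array.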

Additional observations from a re-analysis of the deposited data

Results flagged for a closer look

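Values of the members on 4 arrays were checked for an array far from the other 3, in 30 groups, namely the ratio, the control level and the HMB level of each gene's representative probe. For the probe that stands for OAS1 the HMB level of 12.65 on array 1 lay far above the other 3, which were between 12.30 and 12.33. Array 1 did not stand apart on OAS1 probes 1 and 2, with HMB levels of 11.94, 11.36, 12.03 and 11.14 and of 11.98, 11.45, 11.74 and 11.31. On OAS1 probe 3, with 12.43, 12.01, 12.13 and 12.08, array 1 was the highest as well, but less far from the others. For the probe that stands for ADAR the log2 ratio of −0.73 on array 3 lay far below the other 3, which were between −0.36 and −0.31. ADAR probe 3 was alike, with −0.27, −0.24, −0.83 and −0.24. On ADAR probes 1, 2 and 5 array 3 was the lowest as well, but the other arrays spread more. Their ratios were −0.28, −0.45, −1.03 and −0.05 on probe 1, −0.59, −0.42, −1.21 and −0.21 on probe 2, and −0.46, −0.31, −1.30 and −0.14 on probe 5. Chance picks out about 1 in 20 such groups, and here 2 of 30 were picked out.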

How the results depend on the processing

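The median log2 ratio of the 7 members found by name was between −1.26 and −0.81 over the alternatives, and all 7 were below 0 on all arrays in each that gives ratios by array. Of 120 values of single members under alternatives 118 moved by less than their SD. The other 2 were of OASL, −0.06 after median centring without lowess and −0.29 as the mean of its probes. For most of the 120 this outcome was fixed in advance. Unpaired channels, other filters and the summary values left the means as they were, and leaving out an array cannot move a mean by its SD. Only normexp, median centring and the mean over probes could do so, so the count of 118 is no measure of stability. The count of 7 below 0 was likewise fixed outside these alternatives. The alternatives that add the 3 genes matched by description, or rescale the channel levels, were chosen after seeing the data. With those genes the median was −1.20. A wider control than HMB level was found for 6 members without scaling between arrays and for 6 to 7 with an array left out.

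Limma called 6257 probes and 7 partner genes, against 768 and 1 by the methods' t-test (8435 probes before adjustment) and 3690 and 3 without the filter on dim probes. Leaving out each array in turn gave 2573 to 4957 probes and 3 to 6 partner genes. With the channels unpaired, that is with no replicate block, limma called 2569 probes and 2 partner genes, and 65.3% of the probes were lower, against 50.9% with paired channels. Of the 139 values of 10 partner genes, 104 kept their side of the threshold and direction and 34 lost their call. ADAT2 turned to below 0 under normexp (adjusted p 0.966, range 0.453 to 0.986). The cause was not tested. Unexchanged dyes, 4 arrays, an HMB channel near background for IFIH1 and a dim OAS3 probe limit these values.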

Other observations

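Among the interferon-induced effectors, IFI44, MX1 and CXCL10 are named here and were chosen after their values were seen. IFI44, a protein of the interferon response, had ratios of −2.58, −1.97, −4.56 and −2.00 and a mean of −2.78 ± 1.22 (limma adjusted p 0.00844). MX1, a GTPase that blocks viral nucleocapsids, had −2.60, −2.22, −3.81 and −1.87 and a mean of −2.63 ± 0.84 (0.00375). Both were lowest on array 3, as IFIH1 was. The call of MX1 was lost with the channels unpaired (adjusted p 0.0813) and that of IFI44 without the filter on dim probes (0.0730). CXCL10, a chemokine that interferon induces, had −1.40, −1.14, −1.71 and −1.82 and a mean of −1.52 ± 0.31 (limma adjusted p 0.00138), which was −0.96 under normexp. Its lowest value was on array 4, and it was the only one of the 22 effectors that was not lowest on array 3. Genes of the list that did not pass were SAMD9L, SAMD9 and ISG20, with means of −1.74, −0.63 and −0.44.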
